A study of Homo sapiens with 12 samples.

Results

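Transcripts of the DNA replication machinery were examined in U937 cells, a human myelomonocytic line that the study uses to model acute myeloid leukemia (AML). The 44 members are genes for the proteins that license, open, copy and repackage DNA at the replication fork. They were chosen by gene symbol among the 44786 symbols of the deposited table, and each symbol is represented by its transcript of highest mean value. RNA-seq covered 4 groups of 3 libraries: untreated cells, cells given 200 nM decitabine (DAC), cells given 1 µM all-trans retinoic acid (ATRA), and cells given both (DAC + ATRA). By the labels every culture grew in RPMI medium with 20% FCS and 5 ng/ml GM-CSF, while the study's methods give a lower share of FCS and name no GM-CSF for this line. The treatment ran over 3 days with daily fresh medium and DAC, and ATRA was given with the last DAC dose. The labels give 96 hours for the untreated cells and 72 hours for the others, while the study's design text gives RNA isolation after 72 hours with no exception. If the labels hold, culture time cannot be told apart from treatment where treated cells are compared with untreated ones. The triplicates are described as technical, so every p-value measures the spread between these libraries of a single cell line.

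Replication begins with licensing in G1 phase. The origin recognition complex (ORC1 to ORC6) marks origins, CDC6 and CDT1 load the ring-shaped MCM2-7 helicase there, and geminin (GMNN) blocks CDT1 after S phase has begun. The kinase CDC7, MCM10, CDC45 and the GINS complex then turn the helicase on. Primase and polymerase alpha lay down primers, polymerases delta and epsilon extend them on the sliding clamp PCNA, and RFC complexes load that clamp. RPA coats single-stranded DNA, FEN1 and LIG1 join Okazaki fragments, and CAF-1 (CHAF1A, CHAF1B) places histones on the new DNA. Many of these genes are classic targets of E2F transcription factors, which peak in G1 and S phase. DAC is a cytidine analog that is itself built into DNA during S phase and traps DNA methyltransferases, and ATRA is a ligand of retinoic acid receptors that drives myeloid cells to differentiate.

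Between 8042435 and 10683593 reads were counted per library, and 3 reads equal 2.50 to 3.71 normalized reads. Of the 10 myelomonocytic markers checked, 9 had a group mean of at least 10 normalized reads in every group and PTPRC was listed at 0 throughout. The erythroid markers were listed at 0, the T cell and epithelial markers were at 0 in untreated and ATRA libraries and reached at most 7.41 and 9.96 normalized reads in the others. Of the B cell markers, CD79A ran from 124 to 141 normalized reads in untreated, from 501 to 523 in DAC, from 226 to 369 in ATRA and from 1299 to 1385 in DAC + ATRA libraries, and MS4A1 reached at most 2.92. The fibroblast marker sum, carried by COL1A1, ran from 14.6 to 21.2 in untreated and from 211 to 274 in DAC libraries, with 48.6 to 54.6 in ATRA and 128 to 164 in DAC + ATRA libraries. The summed myelomonocytic level ran from 62217 to 69414 in untreated, from 39347 to 56978 in DAC, from 42968 to 60546 in ATRA and from 36816 to 39599 in DAC + ATRA libraries. Mitochondrial transcripts held 40.6% to 42.5% of the counted reads in untreated and 37.0% to 40.4% in DAC libraries. They held 38.9% to 41.1% in ATRA and 36.3% to 38.3% in DAC + ATRA libraries. The part of these shifts in the replication results was not tested.

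How well a member was measured depended on its transcript. How reads shared by overlapping transcripts of a gene were counted is not given in the sources used here. The number of bases that no other transcript shares ran from 0 for POLE to 3771 for MCM8. Of the 44 members, 35 had at least 10 normalized reads in 3 or more libraries. For 22 of these the row is a protein-coding transcript, tested among 9016 such transcripts. For 13 it is a transcript with a retained intron, without a defined coding sequence or marked for decay, tested among all 19373 transcripts that pass the same filter. An asterisk marks these 13 in the plots. The other 9 members, ORC1, ORC4, ORC5, CDC45, GINS3, POLA1, PRIM1, PCNA and RFC1, were too sparsely counted to be tested by row. PCNA, the sliding clamp, had 1.84, 0.910 and 3.69 normalized reads in untreated, 4.32, 6.82 and 2.99 in DAC, 1.06, 2.73 and 5.83 in ATRA and 1.81, 1.05 and 3.71 in DAC + ATRA libraries. Its transcript has 1359 bases, of which 127 are shared with no other. ORC1, the largest ORC subunit, had 2 reads in DAC library 4 and none elsewhere, with 41 unshared bases. For CDC45, a core part of the active helicase, the row gave 8.27, 13.7 and 6.46 normalized reads in untreated, 5.40, 2.92 and 4.98 in DAC, 8.45, 5.46 and 18.3 in ATRA and 2.71, 4.21 and 8.65 in DAC + ATRA libraries. For POLA1, the catalytic subunit of polymerase alpha, no library exceeded 4.62. Such counts say nothing of the level of the genes as a whole.

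The best known shared feature of the family, E2F-type words in the promoters, was found in part of the members. In RefSeq promoters (GRCh38.p14, 250 bases before to 50 after the start), which were found for 38 of the 44 members, the E2F-type words TTTCCCGC, TTTCGCGC, TTTGCCGC and TTTGGCGC were searched on both strands. At least 1 of them occurred in 18 of 38 member promoters (47.4%), compared with 3.31% of all 35116 promoters in the table and 5.02% of the 5853 promoters whose gene had a tested protein-coding transcript. With the 250 bases before the start alone, 12 of 38 (31.6%) held a match, compared with 2.79% of all promoters. A CCAAT box, the letters CCAAT on either strand, was in 21 of 38 (55.3%) and in 34.6% of all promoters, and the cell cycle homology region TTTGAA was in 0 of 38 and in 15.2%. Among the promoters whose gene had a tested protein-coding transcript, these shares were 36.8% and 10.2%. An E2F word and a CCAAT box can share at most a single end base, and a match is a run of letters, not a shown binding site. The stretches from 160 bases before to 30 bases after the start are shown for 5 members that hold a match and were called lower with DAC + ATRA, with the E2F words in capitals. RPA1, which holds none of the words in this window and did not pass, is shown as a contrast.
MCM6, minus strand, chr2:135876414-135876603: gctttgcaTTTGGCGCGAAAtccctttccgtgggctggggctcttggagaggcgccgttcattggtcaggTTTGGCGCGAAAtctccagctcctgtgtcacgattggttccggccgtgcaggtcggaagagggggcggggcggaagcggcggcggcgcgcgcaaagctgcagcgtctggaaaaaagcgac
GINS2, minus strand, chr16:85688925-85689114: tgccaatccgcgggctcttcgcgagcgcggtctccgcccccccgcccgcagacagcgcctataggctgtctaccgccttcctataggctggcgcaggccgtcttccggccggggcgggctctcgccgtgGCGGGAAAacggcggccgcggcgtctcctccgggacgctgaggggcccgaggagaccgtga
CDT1, plus strand, chr16:88803629-88803818: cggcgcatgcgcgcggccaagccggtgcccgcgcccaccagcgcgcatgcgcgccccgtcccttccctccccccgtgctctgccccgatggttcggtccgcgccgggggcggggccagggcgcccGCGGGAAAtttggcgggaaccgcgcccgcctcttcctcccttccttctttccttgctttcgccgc
CDC6, plus strand, chr17:40287719-40287908: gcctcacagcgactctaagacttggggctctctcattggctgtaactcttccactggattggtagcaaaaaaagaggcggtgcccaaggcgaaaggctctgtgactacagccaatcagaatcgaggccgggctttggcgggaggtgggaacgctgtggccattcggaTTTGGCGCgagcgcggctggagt
RFC3, plus strand, chr13:33817989-33818178: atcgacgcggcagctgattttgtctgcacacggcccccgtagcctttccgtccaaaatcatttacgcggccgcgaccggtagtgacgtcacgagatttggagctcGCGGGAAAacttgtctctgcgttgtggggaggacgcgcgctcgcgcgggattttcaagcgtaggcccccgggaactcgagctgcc
RPA1, plus strand, chr17:1829845-1830034: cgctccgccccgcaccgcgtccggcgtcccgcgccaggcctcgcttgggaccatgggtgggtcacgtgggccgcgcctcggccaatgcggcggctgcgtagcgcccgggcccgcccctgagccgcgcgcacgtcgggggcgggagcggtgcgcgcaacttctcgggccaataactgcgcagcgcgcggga

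Counted from the start of the transcript with no position 0, the MCM6 matches began at -152, -148, -90 and -86. Each pair overlaps in a near-palindrome that reads as a match on both strands, so these are 2 separate sites. The single matches in GINS2, CDT1 and RFC3 began at -31, -35 and -55, and that in CDC6 lay just inside the transcript, at 8. RPA1 had none of these words in this window.

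**Figure D1:**
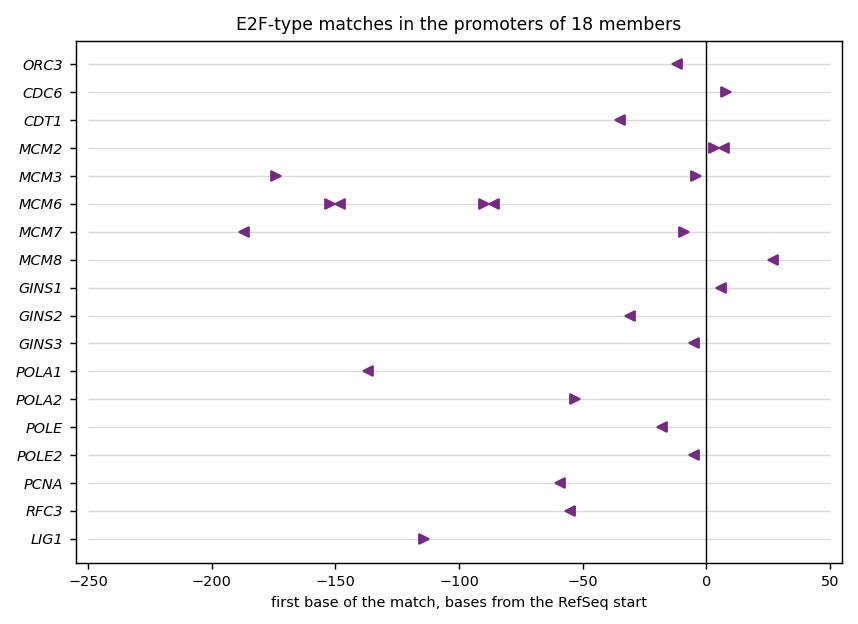
Positions of E2F-type matches in the 18 member promoters that hold any, in bases from the RefSeq start (x axis), with 1 line per gene. Triangles pointing right are matches on the gene's own strand and triangles pointing left on the opposite strand, and MCM6 shows 4 matches in 2 overlapping pairs, at -152 and -148 and at -90 and -86.

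Of the 35 tested members, 19 fell with DAC, 22 fell with DAC + ATRA, and 0 were called with ATRA alone in limma. In bulk RNA, fewer cells in S phase and less RNA per cell cannot be told apart. Values are differences in log2(normalized read count + 1) ± SE from a limma fit of the 12 libraries, n = 3 per group, and a member was called at a Benjamini-Hochberg adjusted p under 0.01. With DAC, 13 of the 22 members with a protein-coding row fell, where 8.7% of all tested protein-coding transcripts were called lower. Of the 13 with another kind of row 6 fell, where 11.3% of all tested transcripts did. With DAC + ATRA, 17 of 22 fell, against 14.2% of protein-coding transcripts, and 5 of 13 fell, against 16.1% of all transcripts. RFC2 passed the filter on low values through its untreated libraries alone, which favors a drop. Without RFC2 the counts were 12 of 21 with DAC and 16 of 21 with DAC + ATRA. None of the 35 rose in any comparison in limma, and none in edgeR or DESeq2 on the protein-coding rows. Among all protein-coding transcripts, 30.6% were called higher with DAC, 6.47% with ATRA, 32.6% with the combination, 6.08% in the combination against DAC and 25.9% against ATRA. Among all tested transcripts these shares were 22.2%, 5.11%, 25.5%, 5.18% and 19.1%. At an unadjusted p under 0.05 in limma, ORC3 was higher with DAC and in DAC + ATRA against ATRA, and POLE was higher with DAC + ATRA against untreated cells. With all rows of a symbol summed, 0 members were higher at this level in these comparisons.

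DAC gave the 22 members a median log2 fold change of -0.58, ATRA one of -0.05 and the combination one of -0.84, while the medians over all 9016 protein-coding transcripts were 0.22, 0.00 and 0.20. Scaling with TMM shifted the medians of all protein-coding transcripts to 0.02, -0.01 and 0.06, and those of the members to -0.78, -0.08 and -0.98. The same scaling changed the split of all protein-coding calls with DAC from 2763 higher and 784 lower to 2290 and 1571. It changed that with DAC + ATRA from 2937 and 1278 to 2636 and 1810, and that of DAC + ATRA against ATRA from 2335 and 801 to 2140 and 1222. With TMM-scaled values 17 of the 22 members fell with DAC, where 17.4% of all were lower, and 19 with DAC + ATRA, where 20.1% were.

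In single libraries, the median over the 35 members, relative to the untreated mean, was 0.03, 0.01 and -0.01 in untreated libraries, -0.42, -0.65 and -0.75 in DAC, 0.06, 0.01 and -0.11 in ATRA, and -0.87, -0.70 and -0.87 in DAC + ATRA libraries. The DAC libraries were all below the untreated and ATRA libraries, and DAC library 4, with -0.42, was the least reduced of them. Over all 19373 transcripts, the same median stayed between 0.00 and 0.08 in the 12 libraries. In DAC + ATRA, 18 of the 22 protein-coding members had every library below every untreated library, a pattern found for 23.9% of all protein-coding transcripts. With DAC it was 14 of 22 against 18.2%, and with ATRA 5 of 22 against 13%.

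**Figure D2:**
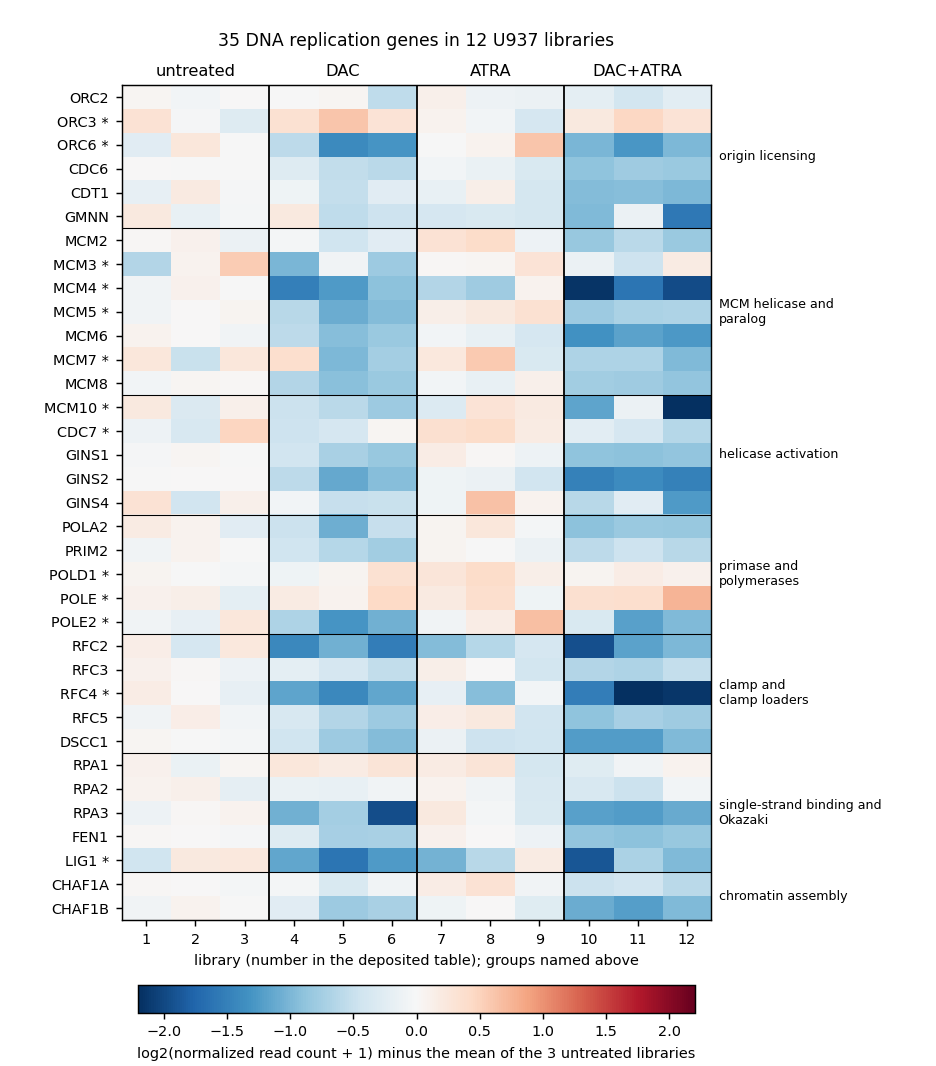
Heat map of the 35 members with enough reads, in rows grouped by role, over the 12 libraries in columns. Color is log2(normalized read count + 1) minus the mean of the 3 untreated libraries, asterisks mark rows that are not protein-coding transcripts. Blue fills most of the DAC and DAC + ATRA columns while ORC3, POLD1, POLE, RPA1 and RPA2 stay pale or red.

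Among the 9 origin licensing genes, 6 could be tested, and the loaders CDC6 and CDT1 and the subunit ORC6 fell with DAC + ATRA while ORC2 and ORC3 did not pass. The CDC6 transcript (chr17:40287879-40304657, plus strand, 12 exons, hg38) had 2249.9, 2239 and 2238 normalized reads in the untreated libraries, 1842, 1532 and 1481 in DAC, 2153, 2025 and 1771 in ATRA and 1211, 1309.5 and 1279 in DAC + ATRA libraries. Both DAC-containing groups lay below the untreated libraries without overlap. The log2 fold change was -0.48 ± 0.10 with DAC (adjusted p = 0.00055) and -0.82 ± 0.10 with DAC + ATRA (adjusted p = 6.52e-07). CDT1 (chr16:88803789-88809258, plus strand, 10 exons), which brings the helicase to the origin, had 1845, 2405 and 2055 normalized reads in untreated, 1955, 1445 and 1761 in DAC, 1873, 2282 and 1589.7 in ATRA and 1077, 1096 and 1058 in DAC + ATRA libraries. Here the DAC and untreated libraries overlapped and only the combination stood apart, with -0.29 ± 0.13 for DAC (adjusted p = 0.0712) and -0.96 ± 0.13 for DAC + ATRA (adjusted p = 2.86e-06).

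ORC6, read from a transcript with a retained intron, fell with DAC (-1.08 ± 0.24, adjusted p = 0.000757) and with DAC + ATRA (-1.10 ± 0.24, adjusted p = 0.000531). ORC2, a core subunit of the origin recognition complex, had 112, 105 and 109.9 normalized reads in untreated, 108, 112 and 73.7 in DAC, 118, 100.1 and 99.9 in ATRA and 94.0, 82.1 and 92.7 in DAC + ATRA libraries. Its DAC and untreated libraries overlapped, and the change did not pass with DAC (-0.18 ± 0.17, adjusted p = 0.396) or with DAC + ATRA (-0.28 ± 0.17, adjusted p = 0.157). ORC3, on a retained-intron row, had log2 fold changes of 0.42 ± 0.19 with DAC and 0.32 ± 0.19 with DAC + ATRA, which did not pass (adjusted p = 0.0826 and adjusted p = 0.17). Geminin, the inhibitor of CDT1, had 32.2, 24.6 and 26.8 normalized reads in untreated, 32.4, 18.5 and 19.9 in DAC, 21.1, 21.8 and 20.8 in ATRA and 13.6, 25.3 and 8.65 in DAC + ATRA libraries. The DAC and DAC + ATRA libraries overlapped the untreated ones, and the ATRA libraries were all below them. On this row no change passed the threshold (-0.89 ± 0.32 with DAC + ATRA, adjusted p = 0.0206).

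The MCM helicase genes held the most deeply counted member. MCM6 (chr2:135839626-135876443, minus strand, 17 exons) had 8993, 8574 and 8166 normalized reads in untreated, 5757, 4499 and 4858 in DAC, 8217, 7656 and 6658 in ATRA and 3419, 3781 and 3578 in DAC + ATRA libraries. The combination lay below DAC, and DAC below ATRA and untreated, with no overlap among these. MCM6 fell by 41.5% with DAC (-0.77 ± 0.10, adjusted p = 1.9e-06) and fell by 58.1% with DAC + ATRA (-1.25 ± 0.10, adjusted p = 1.26e-09). MCM2 (chr3:127598411-127622436, plus strand, 16 exons), another subunit of the ring, had 1269, 1332 and 1138 normalized reads in untreated, 1209, 918 and 1051 in DAC, 1558, 1638 and 1154 in ATRA and 698, 824 and 702 in DAC + ATRA libraries. DAC overlapped the untreated libraries, 2 of 3 ATRA libraries lay above all untreated ones, and all DAC + ATRA libraries lay below the others. MCM2 fell with DAC + ATRA (-0.75 ± 0.13, adjusted p = 5.56e-05) but did not pass with DAC (-0.24 ± 0.13, adjusted p = 0.133) or ATRA (0.20 ± 0.13, adjusted p = 0.358).

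MCM5, read from a transcript with a retained intron, had 535, 568 and 587 normalized reads in untreated, 368, 263 and 292 in DAC, 617, 655 and 707 in ATRA and 324, 345 and 352 in DAC + ATRA libraries. Its ATRA libraries were all above the untreated ones without passing the test (0.23 ± 0.12, adjusted p = 0.289). It fell with DAC (-0.88 ± 0.12, adjusted p = 1.6e-06) and with DAC + ATRA (-0.73 ± 0.12, adjusted p = 2.05e-05). MCM4, likewise on a retained-intron row, fell by 57% with DAC (-1.22 ± 0.21) and fell by 73.4% with DAC + ATRA (-1.91 ± 0.21). MCM8, a paralog outside the ring that acts in recombination repair, fell with both to a like extent (-0.79 ± 0.10 and -0.80 ± 0.10), and DAC + ATRA against DAC was -0.01 ± 0.10. MCM3 rested on a transcript without a defined coding sequence. Its row had 15.6, 26.4 and 36.9 normalized reads in untreated, 11.9, 23.4 and 13.9 in DAC, 25.3, 25.5 and 30.8 in ATRA and 22.6, 17.9 and 28.4 in DAC + ATRA libraries. Neither it nor MCM7 passed in any comparison.

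Of the genes that activate the helicase, GINS1 and GINS2 fell in both DAC groups, and the sparsely counted GINS4, CDC7 and MCM10 rows did not pass against untreated cells. GINS2 (chr16:85676198-85688954, minus strand, 5 exons) had 3154, 3198 and 3181 normalized reads in untreated, 2136, 1458 and 1668 in DAC, 2983, 2897 and 2382 in ATRA and 1134, 1217 and 1137 in DAC + ATRA libraries. Each DAC library was below each ATRA library, and each DAC + ATRA library below each DAC library. GINS2 fell by 45.5% with DAC (-0.88 ± 0.12, adjusted p = 3.18e-06) and fell by 63.4% with DAC + ATRA (-1.45 ± 0.12, adjusted p = 1.62e-09). The latter was the largest drop among the 22 protein-coding members in that comparison in limma. In edgeR with TMM and in DESeq2 the sparsely counted RFC2 was lowest (-1.677 and -1.695). GINS1 changed by -0.65 ± 0.11 and -0.89 ± 0.11. GINS4 had 12.9, 7.28 and 11.1 normalized reads in untreated, 9.73, 6.82 and 6.97 in DAC, 9.50, 16.4 and 10.8 in ATRA and 6.33, 8.42 and 3.71 in DAC + ATRA libraries. These are too few to show a change of this size (-0.70 ± 0.36 with DAC + ATRA, adjusted p = 0.108).

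**Figure D3:**
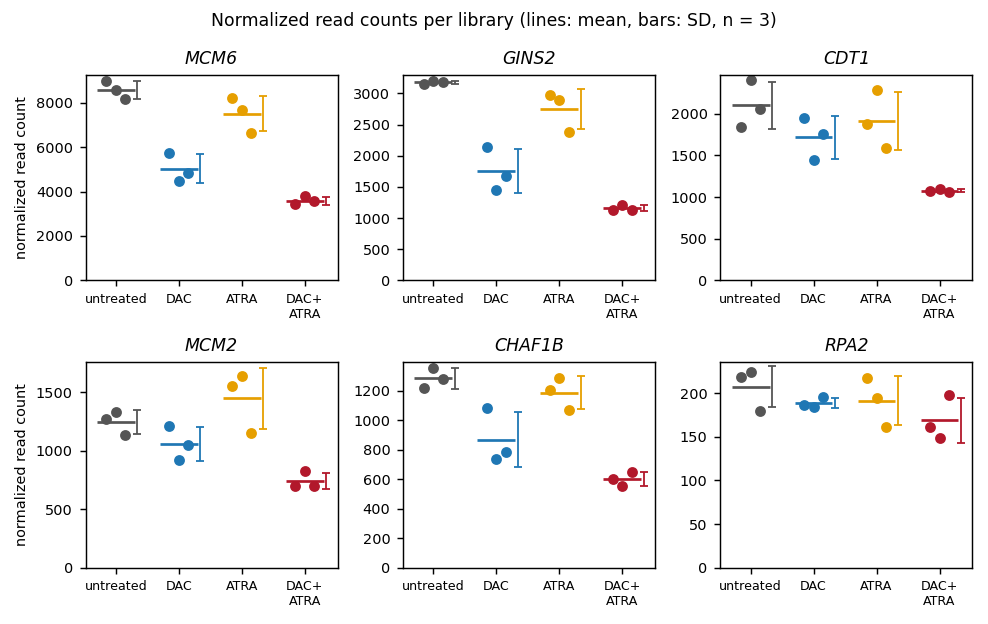
Normalized read counts (y axis from 0) of MCM6, GINS2, CDT1, MCM2, CHAF1B and RPA2 in each library by group, with the mean as a line and the SD as a bar (n = 3). MCM6 and GINS2 step down from untreated to DAC to DAC + ATRA, CDT1 and MCM2 are clearly apart only with DAC + ATRA, and the RPA2 groups overlap.

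The primase and polymerase genes split. POLA2, the second subunit of polymerase alpha, fell with DAC (-0.69 ± 0.17, adjusted p = 0.00156) and DAC + ATRA (-0.85 ± 0.17, adjusted p = 0.000188). PRIM2, the large primase subunit, had 591, 657 and 619 normalized reads in untreated, 460.5, 402 and 364 in DAC, 646, 619 and 568 in ATRA and 418, 452 and 409 in DAC + ATRA libraries. It fell with DAC (-0.61 ± 0.11, adjusted p = 0.000101) and DAC + ATRA (-0.55 ± 0.11, adjusted p = 0.000266) with overlap between these treatments. Its values are uncertain because the genome holds a near-identical partial copy. POLE2, a small subunit of polymerase epsilon, had 28.5, 26.4 and 36.0 normalized reads in untreated, 18.4, 11.7 and 13.9 in DAC, 28.5, 33.7 and 48.3 in ATRA and 23.5, 12.6 and 14.8 in DAC + ATRA libraries. Its transcript has no defined coding sequence. It fell with DAC (-1.01 ± 0.28, adjusted p = 0.00464), and with DAC + ATRA it missed the threshold (-0.83 ± 0.28, adjusted p = 0.0144). The catalytic subunits POLD1 and POLE, both on noncoding rows, had values above 0. POLD1 gave 0.10 ± 0.14 with DAC and 0.10 ± 0.14 with DAC + ATRA. POLE gave 0.23 ± 0.19 and 0.49 ± 0.19, and none of these passed. The POLE row holds 37.8% of the sum over all POLE rows. That sum ran from 151 to 209 in untreated, from 124 to 162 in DAC and from 159 to 173 in DAC + ATRA libraries. On summed rows the log2 fold change of POLE was below 0 in both comparisons.

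Of the clamp loader genes, DSCC1, RFC4 and RFC5 fell with DAC and with DAC + ATRA, RFC3 fell with DAC + ATRA, and RFC2 was too sparsely counted for its call to be relied on. DSCC1, part of the loader that acts in sister chromatid cohesion, had 1204, 1169 and 1141 normalized reads in untreated, 867, 669 and 602 in DAC, 1064, 858 and 866 in ATRA and 498, 501 and 599 in DAC + ATRA libraries. The ATRA libraries lay below the untreated ones without passing (-0.34 ± 0.13, adjusted p = 0.0872). The log2 fold change was -0.73 ± 0.13 with DAC (adjusted p = 7.24e-05) and -1.14 ± 0.13 with DAC + ATRA (adjusted p = 1.82e-07). RFC3 (chr13:33818149-33837500, plus strand, 9 exons) had 728, 686 and 624 normalized reads in untreated, 586, 524 and 466 in DAC, 739, 679 and 513 in ATRA and 432, 422 and 469.6 in DAC + ATRA libraries. It fell with DAC + ATRA (-0.62 ± 0.13, adjusted p = 0.000368) and missed the threshold with DAC (-0.37 ± 0.13, adjusted p = 0.0208), although its DAC libraries were all below the untreated ones. RFC2 had 14.7, 10.01 and 15.7 normalized reads in untreated, 4.32, 5.85 and 3.98 in DAC, 6.34, 8.19 and 9.99 in ATRA and 2.71, 5.26 and 6.18 in DAC + ATRA libraries. Its log2 fold changes of -1.33 ± 0.36 with DAC (adjusted p = 0.00449) and -1.37 ± 0.36 with DAC + ATRA (adjusted p = 0.00303) rest on at most 17 reads per library. No library outside the untreated group reached 10 normalized reads, so the filter itself favored this direction. RFC4, on a retained-intron row, fell by 75% with DAC + ATRA (adjusted p = 1.08e-05). That row holds 36.8% of the sum over all RFC4 rows, and its DAC + ATRA libraries were at 4.21 to 8.14 normalized reads. The sum over all rows ran from 51.7 to 73.5 in untreated and from 23.2 to 29.8 in DAC + ATRA libraries, and was called lower as well. RFC5 fell by 42.7% with DAC + ATRA.

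The 3 subunits of RPA, which bind single-stranded DNA as a trimer, differed. RPA1, the large subunit, had 161, 137 and 156 normalized reads in untreated, 179, 171 and 183 in DAC, 171, 184 and 115 in ATRA and 125, 143 and 159 in DAC + ATRA libraries. Its log2 fold change was 0.24 ± 0.16 for DAC (adjusted p = 0.23) and -0.09 ± 0.16 for DAC + ATRA (adjusted p = 0.663). RPA2, the middle subunit, had 219, 224 and 180.1 normalized reads in untreated, 186, 184 and 195 in DAC, 218, 195 and 161 in ATRA and 161, 148 and 198 in DAC + ATRA libraries. Its change with DAC + ATRA did not pass (-0.30 ± 0.15, adjusted p = 0.0859). Both sets of groups overlap, apart from RPA1 in DAC, where every library was above the untreated ones. The small subunit RPA3 had 69.9, 77.4 and 80.3 normalized reads in untreated, 35.7, 44.8 and 18.9 in DAC, 87.6, 73.7 and 59.9 in ATRA and 32.5, 31.6 and 34.6 in DAC + ATRA libraries. It fell by 58% with DAC (-1.25 ± 0.25, adjusted p = 0.00024) and fell by 55.8% with DAC + ATRA (-1.18 ± 0.25, adjusted p = 0.000357). Differences between the subunits were not tested.

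FEN1, the nuclease that trims Okazaki fragments, had 1815, 1794 and 1750.1 normalized reads in untreated, 1472, 1071 and 1091 in DAC, 1910.3, 1795 and 1652 in ATRA and 979, 955 and 1002 in DAC + ATRA libraries. It fell by 32.9% with DAC (-0.58 ± 0.11, adjusted p = 0.000207) and fell by 45.2% with DAC + ATRA (-0.87 ± 0.11, adjusted p = 1.12e-06). There was no overlap with the untreated or ATRA libraries. LIG1, the ligase that seals them, was read from a retained-intron row. It had 16.5, 26.4 and 26.8 normalized reads in untreated, 9.73, 6.82 and 8.96 in DAC, 10.6, 14.6 and 25.8 in ATRA and 5.42, 13.7 and 11.1 in DAC + ATRA libraries, and this row, though not the summed rows, was called lower in both DAC groups (-1.33 ± 0.36 and -1.18 ± 0.36). The chromatin assembly factor gene CHAF1B (chr21:36385392-36419015, plus strand, 14 exons) had 1216, 1356 and 1281 normalized reads in untreated, 1085, 738 and 784 in DAC, 1207, 1287 and 1068 in ATRA and 601, 552 and 653 in DAC + ATRA libraries. It fell with DAC (-0.58 ± 0.13, adjusted p = 0.000696) and DAC + ATRA (-1.09 ± 0.13, adjusted p = 2.93e-07), and DAC library 4 stood nearest to the untreated level. Its partner CHAF1A had 1234, 1226 and 1178 normalized reads in untreated, 1184, 958 and 1150.4 in DAC, 1360.1, 1509 and 1144 in ATRA and 872, 907 and 808 in DAC + ATRA libraries. It fell with the combination (-0.49 ± 0.11, adjusted p = 0.00082) and did not pass with DAC (-0.15 ± 0.11, adjusted p = 0.273).

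**Figure D4:**
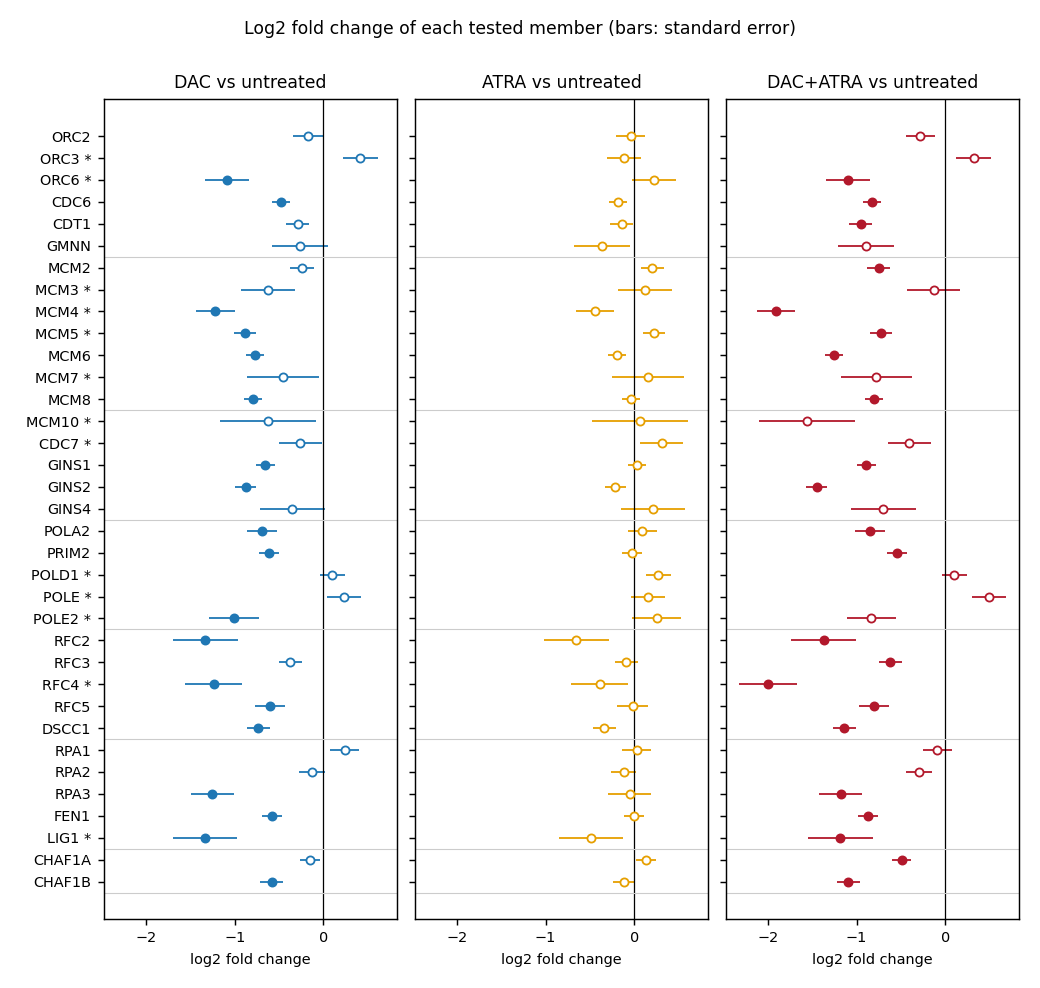
Log2 fold change against untreated cells (x axis) of the 35 tested members, in rows by role, for DAC, ATRA and DAC + ATRA, with standard errors as bars and filled points for adjusted p under 0.01. No ATRA point is filled, and 19 DAC points and 22 DAC + ATRA points are filled, each of them below 0.

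ATRA was given both to otherwise untreated cells and together with DAC, and the members changed little in the former case. Against untreated cells, 0 of 35 members were called with ATRA by limma, where 2.67% of protein-coding transcripts and 1.87% of all transcripts were lower. At an unadjusted p under 0.05 it was 2 of 35 (DSCC1 and MCM4). On the protein-coding rows, edgeR and DESeq2 also called 0, with 4 at an unadjusted p under 0.05 in each. The log2 fold changes ran from -0.65 ± 0.36 for RFC2 to 0.31 ± 0.24 for CDC7. Standard errors ran from 0.10 to 0.54, so small changes were not detectable for the sparsely counted rows.

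When ATRA was added to DAC, 5 of the 22 protein-coding members fell, namely CDT1, GINS2, CHAF1B, MCM2 and MCM6, where 5.26% of protein-coding transcripts did. Among the 13 other rows 0 passed in limma or in edgeR run on all transcripts, with 2 at an unadjusted p under 0.05, where 3.59% of all transcripts were lower. The drop was 36.9% for CDT1 (-0.66 ± 0.13, adjusted p = 0.000918), 32.9% for GINS2 (-0.58 ± 0.12, adjusted p = 0.0014) and 29.9% for CHAF1B (-0.51 ± 0.13, adjusted p = 0.00678). It was 29.7% for MCM2 (-0.51 ± 0.13, adjusted p = 0.00866) and 28.4% for MCM6 (-0.48 ± 0.10, adjusted p = 0.00164). For each of the 5, every DAC + ATRA library lay below every DAC library, a pattern found in 11 of the 22 members and in 19.6% of all protein-coding transcripts. Without DAC library 4, the log2 fold changes were -0.57 for CDT1, -0.42 for GINS2, -0.34 for CHAF1B, -0.41 for MCM2 and -0.38 for MCM6. None of the 5 then passed, with adjusted p from 0.012 for CDT1 to 0.069 for MCM2. Without DAC + ATRA library 10, 1 member, CDT1, passed.

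The interaction term, which is 0 when the log2 effects of DAC and ATRA add up, was called for 0 of 35 members in limma, with 5 at an unadjusted p under 0.05. It was called lower for 1.67% and higher for 0.787% of protein-coding transcripts, and for 0.986% and 0.527% of all transcripts. It was lowest for MCM2 among the protein-coding rows (-0.71 ± 0.19, adjusted p = 0.0275), followed by GINS4 (-0.56 ± 0.51, adjusted p = 0.637) and CDT1 (-0.52 ± 0.19, adjusted p = 0.129). It was highest for RFC2 (0.61 ± 0.51, adjusted p = 0.6), RPA3 (0.13 ± 0.35, adjusted p = 0.897) and PRIM2 (0.09 ± 0.16, adjusted p = 0.825). DESeq2 called MCM2 (-0.67, adjusted p = 0.00114) and edgeR with TMM called 0, with 3 at an unadjusted p under 0.05. The median over the 22 was -0.26, and over all 9016 transcripts -0.06. With TMM-scaled values these medians were -0.16 and 0.02.

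**Figure D5:**
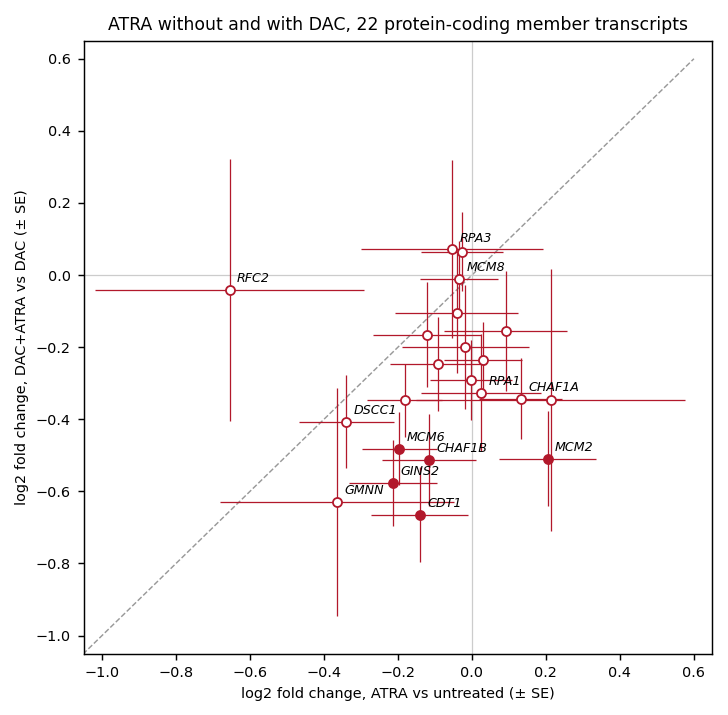
Log2 fold change of ATRA against untreated (x axis) and of DAC + ATRA against DAC (y axis) for the 22 members with a protein-coding row, with standard errors, filled where DAC + ATRA was lower than DAC at adjusted p under 0.01. The dashed line marks equal effects, and the 5 filled points lie below it, with MCM2 at 0.20 on the x axis and -0.51 on the y axis.

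In ATRA-treated cells, adding DAC lowered 16 of the 22 protein-coding members, where 8.88% of protein-coding transcripts fell, and 5 of the 13 others, where 10.2% of all transcripts fell. The median of the 22 was -0.79 beside 0.16 over all protein-coding transcripts, and the lowest was GINS2 (-1.24 ± 0.12, adjusted p = 2.72e-08). This comparison shares the DAC + ATRA libraries with those above.

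Summing all rows of a symbol brought in the reads of the other transcripts. On this scale 38 members could be tested, and for 17 of them the single row above held at least 90% of the sum, so the sum adds little there. Of the 38, 20 fell with DAC, where 12.4% of all 13528 symbols did, and 27 fell with DAC + ATRA, where 17.4% did. With ATRA 0 were called lower in limma, with 3 at an unadjusted p under 0.05, where 2.93% of symbols were lower. Summed rows made ORC4, CDC45 and RFC1 testable. ORC4 was called lower with DAC and with DAC + ATRA (log2 fold change -1.09 and -1.17). Like RFC2, it had no library of either DAC group at 10 normalized reads, so the filter favored a drop. Without both genes 18 of 36 fell with DAC and 25 of 36 with DAC + ATRA. RFC1, the large subunit of the clamp loader, fell with DAC + ATRA (-1.37). CDC45, at -0.95 with DAC and -0.90 with DAC + ATRA, did not pass. MCM3 fell with DAC (-1.02) and was at -0.75 with DAC + ATRA without passing. With DAC + ATRA, GMNN (-0.83), MCM10 (-1.71), CDC7 (-0.83) and POLE2 (-1.21), which did not pass on their single rows, fell on summed rows. No DAC + ATRA library of MCM10 reached 10 normalized reads (highest 9.94), so the filter favored its drop too. MCM10 remains among the 25 of 36. LIG1, called on its single row, did not pass on summed rows with DAC (-0.70, adjusted p = 0.0373) or with DAC + ATRA (-0.77, adjusted p = 0.0204). POLD1, POLE, ORC2, ORC3, RPA1 and RPA2 passed in neither comparison, as in the single rows.

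Of the members with a promoter in the table, 10 of the 15 tested ones with an E2F-type match fell with DAC + ATRA, with a median log2 fold change of -0.82. Of the 14 without one 8 fell, RFC2 among them, with a median of -0.84. The shares called lower in this comparison were 14.2% of protein-coding and 16.1% of all transcripts. MCM6, GINS2, CDT1 and RFC3, shown above with their matches, were among those that fell, and ORC3, MCM3, MCM7, POLE and POLE2 held a match and did not pass. RPA1, without a match, did not pass either, while FEN1 and CHAF1B fell without one.

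Genes that work beside the machinery were set next to it. Of 33 other replication genes, among them fork protection, checkpoint and histone chaperone factors, 30 were tested, and 13 fell with DAC and 15 with DAC + ATRA, with medians of -0.36 and -0.58. Among all tested transcripts 11.3% and 16.1% were lower, and among protein-coding ones 8.7% and 14.2%. In both comparisons the lower ones include WDHD1, a factor that couples helicase and polymerase alpha (-0.93 and -1.40), ATAD5, which unloads PCNA (-1.10 and -1.18), and POLD3, a polymerase delta subunit (-0.81 with DAC). The lowest was POLD2 with DAC (-1.33) and the helicase gene RECQL4 with DAC + ATRA (-1.89), both on noncoding rows. The highest, HMCES with DAC (0.40) and DBF4B with DAC + ATRA (0.16), did not pass. With ATRA, TOP1, the topoisomerase that relieves supercoils ahead of the fork, rose (0.41, adjusted p = 0.00681), and POLD2 was lowest (-0.76, not called).

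Of 10 genes for nucleotide supply, 6 were tested, and their medians were -0.14 (DAC), -0.02 (ATRA) and -0.41 (DAC + ATRA). With DAC 1 rose and 1 fell, with ATRA 1 rose and 0 fell, and with DAC + ATRA 1 rose and 3 fell. Among all tested transcripts 22.2%, 5.11% and 25.5% were higher in these comparisons, and 11.3%, 1.87% and 16.1% were lower. SAMHD1, a dNTP hydrolase that lowers the nucleotide pool and inactivates the active form of several nucleoside analogs, rose in all 3 treatments. It went from 164, 207 and 194 normalized reads in untreated libraries to 454, 394 and 406 in DAC, 428, 445 and 440.3 in ATRA, and 1283, 1326 and 1328 in DAC + ATRA libraries. Its log2 fold changes were 1.15, 1.22 and 2.80, the highest of the list in each treatment. TYMS, thymidylate synthase itself, fell with DAC + ATRA (-1.12) and at -0.71 was the lowest of the list with DAC without passing. TYMS was also the lowest of the list with DAC + ATRA, and RRM2B, at -0.06, with ATRA.

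Of 13 E2F and pocket protein genes, 10 were tested, and their medians were -0.08 (DAC), 0.12 (ATRA) and -0.23 (DAC + ATRA). With DAC, E2F1, E2F8, TFDP1 and RBL1 fell, and with DAC + ATRA the same 4 fell and E2F2 rose. Among all tested transcripts 11.3% and 16.1% were lower in these comparisons, and 25.5% were higher with DAC + ATRA. E2F1, an activator of S phase genes, had 3054, 3379 and 3206 normalized reads in untreated, 2720, 2132 and 2481 in DAC, 3664, 3827 and 3238 in ATRA and 1716, 1868 and 1697 in DAC + ATRA libraries. It fell by 0.40 with DAC and fell by 0.87 with DAC + ATRA on the log2 scale. TFDP1, the dimer partner of E2F proteins, was the lowest of the list in every treatment (-0.88, -0.12 without passing with ATRA, and -1.14). The highest were E2F3 with DAC (0.46) and E2F7 with ATRA (0.35), neither of which passed, and E2F2 with DAC + ATRA (0.78, adjusted p = 4.9e-07).

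Of 8 mitosis genes set beside the list, 6 were tested, and 1, CDK1, on a noncoding row, fell with DAC (-0.75) and with DAC + ATRA (-0.83), where 11.3% and 16.1% of all tested transcripts were lower. CDK1 was the lowest of the list in each treatment, at -0.09 without passing with ATRA. The medians were -0.01 (DAC), 0.03 (ATRA) and -0.21 (DAC + ATRA), the highest being MKI67 with DAC (0.56) and ATRA (0.37) and PLK1 with DAC + ATRA (0.77), none of which passed. MKI67 was at 4.21 to 15.9 normalized reads, so its row says little of proliferation.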

How the data were processed

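U937 cells were sequenced in 12 libraries, 3 per group (8042435 to 10683593 counted reads). According to the submitters' notes and the paper's methods, the authors aligned reads to hg38 with STAR, counted them per UCSC transcript with HTSeq and normalized them with DESeq2. Tool versions are not given in the sources used here. The deposited signal values, for 197782 transcripts, are read counts divided by 1 size factor per library. All values in each library were whole multiples of a single step (within 0.001 read), so reads were recovered. The smallest value above 0 in a library was taken as 1 read.

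Transcripts were matched to GENCODE 44 (174768 matched). Of 90879 taken as protein-coding, 15414 were assigned by symbol. Transcripts with at least 10 normalized reads in 3 or more libraries were tested with limma 3.58.1 in R 4.3.3 (lmFit, eBayes with trend and robust, no covariates) on log2(value + 1), all groups in 1 fit, with Benjamini-Hochberg adjustment within each comparison over all tested transcripts and a threshold of 0.01. A pseudocount understates changes of low transcripts. Since the values are not counts, the edgeR test foreseen for raw counts served as an alternative (edgeR 4.0.16), as did DESeq2 1.42.0 on the recovered reads. Functions were tested on simulated data. Full values per library were given for 18 preset members, except POLA1, for which only the highest value is given. They were also given for the 3 lowest and 3 highest protein-coding members of each comparison with untreated cells and of the interaction. Of each other list the highest and lowest gene is named. Other genes named were chosen after their values were seen. The members and lists were chosen with earlier results of these data known. The authors' libraries differed by more than sampling noise within each group (chi-square per degree of freedom 2.36 to 10.4), so none was merged as a repeat deposit. This does not show separate cultures. Promoter sequences are those of RefSeq on GRCh38.p14. Some genes of the marker and companion lists are not reported here.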

Additional observations from a re-analysis of the deposited data

Results flagged for a closer look

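No member was flagged. Among the genes set beside the machinery, E2F2, an activator of the E2F family, had an interaction of DAC and ATRA of 0.64 ± 0.13 on the log2 scale (limma, adjusted p = 0.00554), so that the effect of ATRA differed with and without DAC. E2F2 had 4111, 4713 and 4487 normalized reads in untreated libraries, 4276, 4543 and 4581 with DAC, 4704, 5343 and 4500.2 with ATRA, and 6941, 8181 and 7676 with DAC + ATRA. Its explanation was not tested.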

How the results depend on the processing

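Calls of members with DAC, ATRA and DAC + ATRA against untreated cells and of DAC + ATRA against ATRA stayed within 1.5 times the reported counts under the alternatives run, except that rows summed by symbol gave 20 with DAC (against 13) and 27 with DAC + ATRA (against 17), with 38 members tested in place of 22. For DAC + ATRA against DAC (5 members), an adjusted p under 0.05 and scaling by library size gave 8 each and a pseudocount of 0.1 gave 3. Leaving out 1 library gave 0 to 7, with 0 without DAC library 4 and 1 without DAC + ATRA library 10, and 1 to 8 both over all transcripts and for summed rows. The interaction (0 members) gave 1, MCM2, at an adjusted p under 0.05, with DESeq2, with scaling by library size and without the filter, and 0 to 2 leaving out 1 library, over protein-coding rows, over all transcripts and for summed rows alike, the 2 being MCM2 and CHAF1A without ATRA library 9. The member median with DAC was -0.71 by library size and -0.78 by TMM, with DAC + ATRA -0.98 by either, and against ATRA -0.90 by TMM. Leaving out 1 library, it ran from -0.71 to -0.49 with DAC, from -0.36 to -0.19 for DAC + ATRA against DAC and from -0.33 to -0.11 for the interaction. The values of -0.71, -0.19 and -0.11 are those without DAC library 4. The E2F-type words were in 12 promoters with the shorter window. The causes were not tested. Of 2422 single-gene values, 4 changed direction, none of them called, each when 1 library was left out. ORC2 with DAC ran from -0.28 to 0.016 (positive without DAC library 6), MCM3 with ATRA was -0.20 without untreated library 1, RFC3 with ATRA was 0.063 without ATRA library 9 and RPA3 in DAC + ATRA against DAC ran from -0.27 (without DAC library 6) to 0.33. 51 more, not called either, changed sign by less than 1 SE. Of the 2422 values, 44 lost a call and 45 gained one under an alternative. The alternatives over all transcripts and those leaving out libraries of summed rows were chosen after seeing the data. No paired analysis was possible because the columns carry running library numbers, not the replicate numbers of the labels. Depth limits the rows under about 30 reads, among them RFC2, GINS4, MCM7 and MCM10.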
